A study of Homo sapiens with 6 samples.

Results

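Regions that carried H3K79me3 in both cell lines, and H3K79me2 in neither, numbered 541 among 8899 merged regions in human 293T cells, which is 6.08% (95% interval 5.59 to 6.60%). 293T is an established human embryonic kidney line that expresses the SV40 large T antigen. The study set cells with a stable short hairpin RNA against KDM2B (shKDM2B, here knockdown) against cells with a stable control hairpin (shCTL, here control). Both lines were 293T cells, and the labels do not say whether either is a single clone. Each line gave 1 H3K79me3 library, 1 H3K79me2 library and 1 input library without antibody, with the same antibody lots in both lines. The members were chosen from the peak lists: the 4 ChIP lists on chromosomes 1 to 22, X and Y were merged where peaks shared at least 1 bp, and a region was kept if it held at least 1 H3K79me3 peak of each line and no H3K79me2 peak. Presence of the H3K79me3 peaks and absence of the H3K79me2 peaks are therefore the choice itself and no finding.

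H3K79 lies on the globular surface of the nucleosome, and DOT1L, the methyltransferase for this residue, adds the methyl groups one at a time. The di- and trimethylated forms are found mainly over the transcribed part of active genes, often from near the start into the body, where DOT1L is brought in together with elongation factors. KDM2B is a JmjC-domain protein that binds unmethylated CpG-rich DNA, and the study asked whether it takes methyl groups off H3K79.

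The 6 libraries held 11912494 to 17044011 tags after duplicate removal. Each group is a single library, so the lines were compared without a test or a replicate check, and every interval given covers counting error only. A peak list holds only places above a threshold. The absence of an H3K79me2 peak is therefore the absence of a call and not a measured level of 0. The H3K79me3 peaks were called with an estimated fragment of 126 bp in knockdown and 180 bp in control cells. For H3K79me2 it was 210 bp in knockdown and 148 bp in control cells. The part of this in the called widths was not tested. The level of KDM2B was not analysed here. The files name no genes, and no hg19 annotation or sequence was used here, so the regions are given by position (hg19, 1-based) and not by gene.

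The members were long. Their median length was 6083 bp (quartiles 4188 and 7397 bp), against 4011.5 bp in the 3922 regions with both marks in both lines (quartiles 2799 and 5596 bp). Of the 541 members 359 were longer than 5 kb (66.4%, 95% interval 62.2 to 70.3%), against 1294 of the 3922 regions with both marks (33.0%, 95% interval 31.5 to 34.5%). Above 7 kb the shares were 33.5% of the members and 9.82% of the regions with both marks. The length depended on which peak limit was used. With a fold enrichment of at least 5 in all lists, 416 regions met the rule with a median of 3662 bp. The 2036 regions with both marks under that limit had a median of 3075 bp. Of the 416, 73 overlapped one of the 541. With a score of at least 100 in all lists, the median was 6042 bp in 431 regions, against 4031 bp in 2879 regions with both marks. Merged length was shared with the regions that had H3K79me3 in both lines and H3K79me2 in a single line. Their medians were 5921 bp for H3K79me2 in control only and 5998.5 bp for H3K79me2 in knockdown only. A merged region also spans its H3K79me2 peaks. With H3K79me2 in control only, the called H3K79me3 length was a median of 4308 bp in knockdown and 3537 bp in control cells. With H3K79me2 in knockdown only it was 4153.5 and 4220 bp, against 5737 and 5204 bp in members. Regions with H3K79me3 in a single line and no H3K79me2 were shorter, with a median of 2186 bp for knockdown only and 3482.5 bp for control only. The mirror image, H3K79me2 in both lines without H3K79me3, had a median of 1531.5 bp and 6 of 498 regions over 5 kb.

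**Figure D1:**
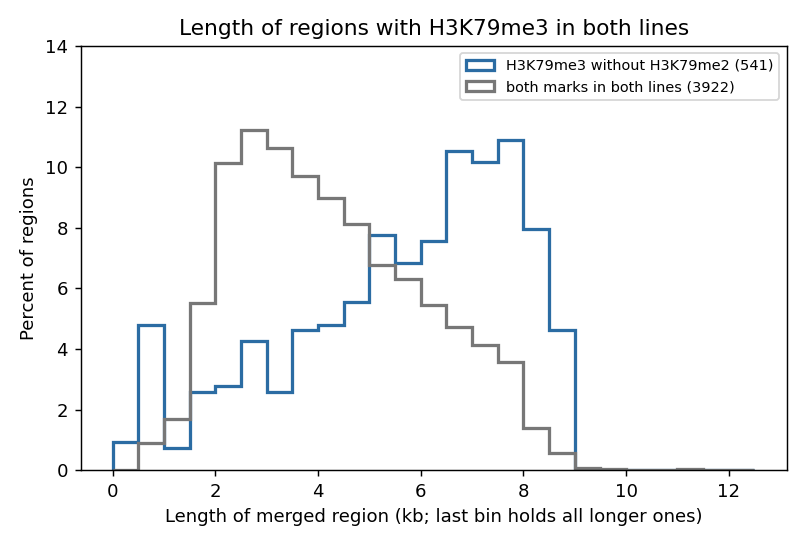
Length of merged regions in kb, as percent of the regions in each class in bins of 500 bp, for the 541 regions with H3K79me3 in both lines and no H3K79me2 and the 3922 regions with both marks in both lines. The regions without H3K79me2 pile up between 5 and 9 kb, with a separate small group under 1 kb, and the regions with both marks peak near 3 kb.

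Read by merged length, which also spans any H3K79me2 peaks, the members made up a growing share of the 5066 regions with H3K79me3 in both lines. They were 10.7% of these in all. They were 56 of 1262 such regions of 1 to 3 kb (4.44%, 95% interval 3.37 to 5.72%), 95 of 1685 of 3 to 5 kb (5.64%, 95% interval 4.59 to 6.85%), 178 of 1255 of 5 to 7 kb (14.2%, 95% interval 12.3 to 16.2%) and 181 of 759 of 7 to 10 kb (23.8%, 95% interval 20.9 to 27.0%). Up to 1 kb they were 31 of 101, and 25 of these 31 lay on an input peak, as did 81 of the 101. The longest member spanned 8986 bp, and no H3K79me3 list held a peak longer than 9092 bp. The longest H3K79me2 peak was 8846 bp in knockdown and 9166 bp in control cells. The missing H3K79me2 calls of long regions fell in a length range of low fold enrichment. In H3K79me3, peaks over 7 kb had a median fold of 3.65 in knockdown and 3.58 in control cells, against 7.41 and 6.73 for peaks up to 3 kb. In H3K79me2, peaks over 7 kb had 3.64 in knockdown and 3.78 in control cells, against 6.31 and 6.72 up to 3 kb. The part of this in the missing calls was not tested.

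The members had slightly denser H3K79me3 tags and lower fold enrichment than the regions with both marks. In tags per 1000000 filtered tags of the library (RPM) per kb of called peak, their median was 5.73 in knockdown and 3.77 in control cells. The regions with both marks stood at 5.26 in knockdown and 3.41 in control cells. Within the knockdown list the member peaks' median density was at the 65.4th percentile and within the control list at the 56.5th. Their fold enrichment, the authors' value against each library's own local background, had a median of 4.17 in knockdown and 4.07 in control cells, which was at percentile 16.9 of the knockdown list and 18.2 of the control list. Regions with both marks had a median fold of 6.85 in knockdown and 6.24 in control cells. The low fold was shared with the classes most like the members. It was 4.52 in knockdown and 4.41 in control cells where H3K79me2 was in control only, and 4.90 in knockdown and 4.67 in control cells where it was in knockdown only. It was 4.01 for H3K79me3 in knockdown only and 4.08 for H3K79me3 in control only, both without H3K79me2. Their densities were also near those of the members where H3K79me2 was in knockdown only, at 5.68 RPM per kb in knockdown and 3.90 in control cells. The members' score, the authors' significance value that starts at 50, was at the 32.5th percentile of the knockdown list, with a median of 131.2 per peak, and at the 29.8th percentile of the control list, with a median of 106.7. The 542 knockdown and 543 control peaks in members were 7.67% and 9.70% of their lists, and they held 15.0% and 15.2% of the tags in peaks.

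The fold enrichment was also lower in bands of merged region length. These bands do not hold the length of the H3K79me3 peaks fixed, since a merged region also spans its H3K79me2 peaks. The called H3K79me3 length in members was a median of 5737 bp in knockdown and 5204 bp in control cells. In regions with both marks it was 2613 bp in knockdown and 2345.5 bp in control cells. Fold was lower in longer peaks of the same lists, and the part of this in the gap was not tested. In regions of 1 to 3 kb the median fold was 4.25 in members and 9.08 in regions with both marks in the knockdown list, and 4.02 and 7.54 in the control list. At 3 to 5 kb it was 4.32 in members and 7.17 in regions with both marks in the knockdown list, and 3.92 and 6.54 in the control list. From 7 to 10 kb the values were closer, at 3.79 in members and 4.46 in regions with both marks in the knockdown list, and 3.69 and 4.44 in the control list. The density of tags was lower in members than in regions with both marks in each length band in knockdown cells, for example 4.89 against 5.53 RPM per kb at 3 to 5 kb. In control cells it was lower in each band other than 1 to 3 kb, where it was 2.53 against 2.33. Across the 541 members, which share both libraries, density rose with length with Spearman's rho of 0.673 in knockdown and 0.660 in control cells. The part of length in the higher median density over all members was not tested.

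**Figure D2:**
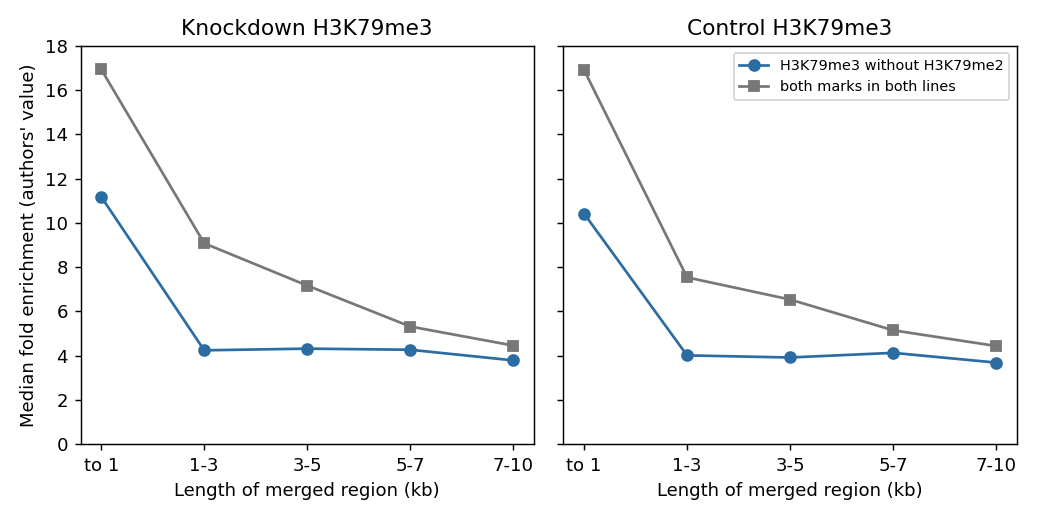
Median fold enrichment of H3K79me3 peaks, the authors' ratio over local background, by length band of the merged region in kb, with knockdown on the left and control on the right. The bands do not hold the length of the H3K79me3 peaks fixed. In each band regions without H3K79me2 lie below those with both marks, and the gap is widest under 3 kb and narrow from 7 to 10 kb.

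The rule asks for overlapping H3K79me3 peaks, so only their extent and summits are described here. In 538 of the 541 members each line gave a single peak. The shared stretch was a median of 85.0% of the region in these (quartiles 68.4 and 93.2%), and in 487 of them it was at least 50%. The summits, the points of highest tag pileup, lay a median of 213 bp apart, and in 398 regions (74.0%) within 500 bp. In the 3792 regions with both marks and a single H3K79me3 peak in each line, the shared stretch was a median of 84.6% of the stretch covered by either peak, the summits lay 163.5 bp apart, and 85.3% were within 500 bp. Among the 538 members with a single peak in each line, the knockdown peak was the wider one in 327 (60.8%). This share was not counted in other regions. The median log2 ratio of called length, knockdown over control, was 0.061 in members and 0.056 over all 5066 regions with H3K79me3 in both lines. Density in knockdown cells tracked density in control cells across the 541 regions with Spearman's rho of 0.924, and across all 5066 regions with H3K79me3 in both lines with 0.923; the points of each share both libraries.

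H3K79me3 in the members was higher in knockdown than in control cells, by about as much as elsewhere. The median log2 ratio of RPM per kb, knockdown over control, was 0.50 (quartiles 0.31 and 0.68), and it was above 0 in 513 of 541 regions (94.8%, 95% interval 92.6 to 96.5%). Over all 5066 regions with H3K79me3 in both lines it was 0.55 (quartiles 0.36 and 0.75), and 96.9% were above 0. At least 1.5-fold higher in knockdown cells were 207 members (38.3%, 95% interval 34.1 to 42.5%), against 44.7% of all regions with H3K79me3 in both lines. At least 1.5-fold lower was 1 member (0.185%), against 0.178% of all these regions, and this member, at chromosome Y, 13808532 to 13808976, lay on input peaks of both lines. The shift was general, and the members' share past 1.5-fold was below the general share. With 1 library per line, a difference between the libraries and one between the cells cannot be told apart. The ratio of tags without division by length had a median of 0.56 in members and 0.61 in all such regions. By this measure 255 members were at least 1.5-fold higher (47.1%, against 52% of all) and 19 at least 1.5-fold lower (3.51%, against 2.01%).

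**Figure D3:**
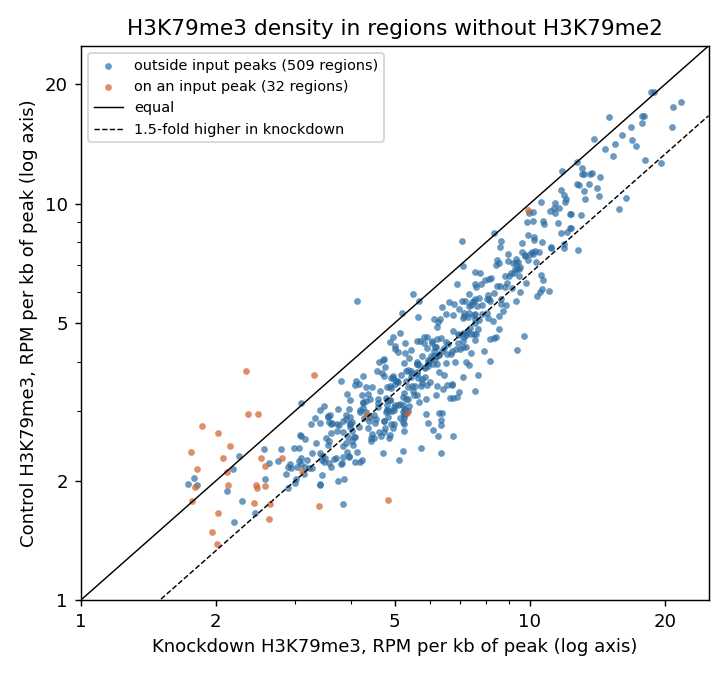
H3K79me3 density in RPM per kb of called peak in the 541 regions without H3K79me2, knockdown on the horizontal and control on the vertical axis, both log scaled, 1 point per region. The regions outside input peaks lie mostly below the line of equality, which means higher in knockdown cells, and approach it at high density, and the 32 regions on input peaks sit on both sides of it, all but 1 at low density.

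The difference between the lines was smallest where H3K79me3 was densest. The 509 members outside input peaks were divided into 4 groups of near equal size by their mean density over both lines. The median log2 ratio per kb was 0.52 in the lowest group (mean density 1.85 to 3.73 RPM per kb), 0.63 in the second, 0.57 in the third and 0.36 in the highest (7.04 to 19.9 RPM per kb). In the highest group 19 of 127 regions were at least 1.5-fold higher in knockdown cells, against 72 of 127 in the second. All regions with H3K79me3 in both lines outside input peaks were likewise highest in the second group and lowest in the densest, with 0.62, 0.66, 0.57 and 0.39 from the lowest to the highest group. The cause was not tested.

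The 5 highest-scoring members outside input peaks in knockdown cells lay on chromosomes 1, 6 and 11. The first, at chromosome 1, 156302413 to 156308349, held 1583 tags in 5758 bp in knockdown and 1516 tags in 5682 bp in control cells, which is 96.6 RPM (95% interval 91.9 to 101.5) and 88.9 RPM (95% interval 84.5 to 93.5). Its log2 ratio per kb was 0.10 (counting SE 0.05), and the nearest H3K79me2 peak lay 36626 bp away. The second, at chromosome 1, 118469994 to 118477002, had 1275 tags in knockdown and 1217 in control cells, 865289 bp from H3K79me2. Its called length was 4744 bp in knockdown and 6915 bp in control cells, so that the ratio per kb, 0.67, was larger than the ratio of tags, 0.12. The next lay at chromosome 1, 84944724 to 84948431, with 572 tags in knockdown and 384 in control cells (log2 ratio per kb 0.40). At chromosome 11, 57435491 to 57439621, 634 tags in knockdown and 560 in control cells gave 0.27, with H3K79me2 7726 bp away. At chromosome 6, 117917777 to 117923806, 890 tags in knockdown and 750 in control cells gave 0.42. All 5 were higher in knockdown cells, and 4 of them by less than 1.5-fold per kb.

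The 5 longest members outside input peaks combined dense signal with low knockdown scores and mostly low fold enrichments. At chromosome 2, 99796169 to 99805154, there were 1153 tags in knockdown and 1044 in control cells, at scores of 75.7 and 50.5. At chromosome X, 53440726 to 53449679, there were 2639 tags (161 RPM) in knockdown and 2444 tags (143 RPM) in control cells, at fold enrichments of 2.69 and 2.93. Another on chromosome X, 153228292 to 153237236, had 1697 tags at a score of 77.3 in knockdown and 1616 tags at 156 in control cells. This control score, like that of the chromosome 4 region below, was above the members' control median of 106.7. The 2 others scored close to the limit of 50 in knockdown cells. Chromosome 4, 146092910 to 146101835, had 2011 tags at a score of 53.0 in knockdown and 1621 tags at 153 in control cells. Chromosome 1, 154146939 to 154155862, had 2094 tags at 53.5 in knockdown and 1746 tags at 56.6 in control cells. Per kb these 5 regions were higher in knockdown cells by log2 ratios of 0.11 to 0.36, and each therefore by less than 1.5-fold.

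The largest ratios between the lines were found at moderate knockdown density and low control density. Among members outside input peaks with at least 50 tags in each line, the largest log2 ratio per kb was 1.44 (counting SE 0.14) and belonged to chromosome 1, 230203172 to 230208478, where knockdown cells had 543 tags over 5217 bp and control cells 143 tags over 3577 bp. At chromosome 13, 96700583 to 96705866, it was 1.38, and knockdown cells had 358 tags over 3240 bp and control cells 234 tags over 5284 bp. This ratio rested largely on the called length, since the ratio of tags was 0.67. At chromosome 22, 17850066 to 17853319, called lengths were alike, 3085 bp in knockdown and 2989 bp in control cells, and the ratio was 1.27 per kb and 1.32 by tags, from 316 tags in knockdown and 132 in control cells. At chromosome 10, 71078496 to 71085991, 703 tags in 7496 bp in knockdown and 85 tags in 2064 bp in control cells gave 1.24. At chromosome 1, 229689715 to 229694454, 481 tags in knockdown and 169 in control cells gave 1.19. In all 5 the control density was 2.35 to 2.77 RPM per kb, below the members' median of 3.77 and lower quartile of 2.80. The choice by ratio favours a low control density, so this is no separate finding. Their knockdown density was 5.72 to 6.74 RPM per kb, beside a members' median of 5.73.

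The smallest ratio in the same set was -0.46 (counting SE 0.17) and belonged to chromosome 18, 18510810 to 18512626, where knockdown cells had 116 tags over 1718 bp and control cells 176 tags over 1817 bp, with an H3K79me2 peak 1113 bp away. It was the only one of the 5 smallest that was lower in knockdown cells by tags as well, at -0.54. In the other 4 the tags were higher in knockdown cells and the knockdown peak was called longer. At chromosome 7, 158490586 to 158497690, the ratio was -0.19 per kb and 0.98 by tags, with 7105 bp called in knockdown and 3175 bp in control cells. At chromosome 5, 176974808 to 176982023, it was -0.11 per kb and 1.14 by tags. At chromosome 2, 62108936 to 62117823, it was -0.14 per kb and 0.16 by tags, and at chromosome 19, 49588477 to 49597317, -0.07 and 0.37. These 4 directions per kb therefore depended on the called length.

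Members mostly lay far from any called H3K79me2. The median distance to the nearest H3K79me2 peak of either line was 72023 bp (quartiles 26145 and 175972 bp). To the nearest knockdown H3K79me2 peak it was 96483 bp and to the nearest control one 77787 bp. Regions with both marks in both lines had a median of 44598 bp to the nearest H3K79me2 peak outside themselves. The classes most like the members lay between, with 61271 bp where H3K79me2 joined H3K79me3 in control only, and 65983 bp where it did so in knockdown only. Regions with H3K79me3 in a single line and no H3K79me2 stood at 62484 bp for knockdown only and 63779 bp for control only. An H3K79me2 peak within 10 kb was found for 52 members (9.61%, 95% interval 7.26 to 12.4%), against 17.6% of the regions with both marks, 23.1% of the regions with H3K79me3 in knockdown only and no H3K79me2, and 15.9% of those with H3K79me3 in control only and no H3K79me2. Among regions with H3K79me3 in both lines it was 17.6% for H3K79me2 in control only and 11.2% for H3K79me2 in knockdown only, the last close to the members' share. At 10 to 100 kb there were 265 members (49.0%) and beyond 100 kb 224 (41.4%), of which 8 lay beyond 1 Mb. The distance to the nearest other H3K79me3 peak differed less, with medians of 53518 bp for members and 47690 bp for the regions with both marks.

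**Figure D4:**
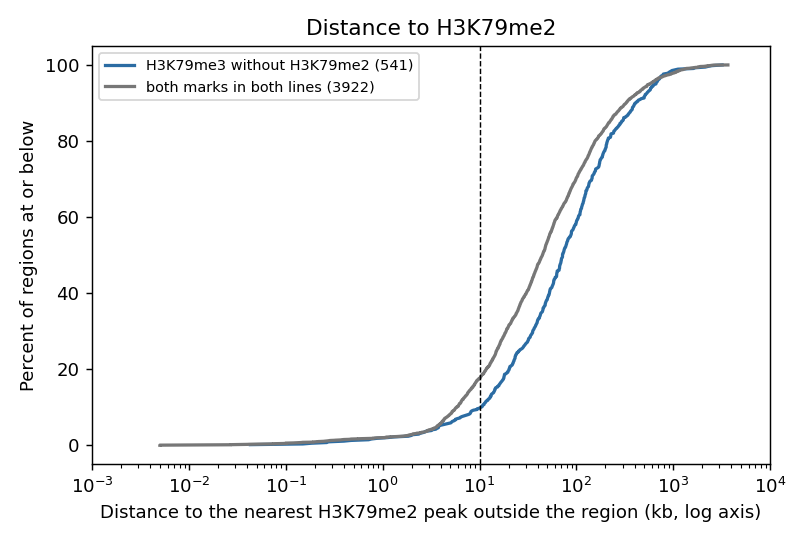
Cumulative percent of regions by distance in kb, on a log axis, to the nearest H3K79me2 peak of either line outside the region itself, with a dashed line at 10 kb. The 541 regions without H3K79me2 run to the right of the 3922 regions with both marks between about 5 and 500 kb, with 9.61% and 17.6% within 10 kb.

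The 5 members outside input peaks that lay farthest from H3K79me2 had 2.56 to 8.64 RPM per kb in knockdown and 2.41 to 5.58 in control cells. The farthest, at chromosome 3, 79040108 to 79043105, was 3205317 bp from H3K79me2 and held 86 tags in 2050 bp in knockdown and 123 tags in 2998 bp in control cells, 2.56 and 2.41 RPM per kb. Its neighbouring H3K79me3 peak lay 18908 bp away. At chromosome 1, 215739936 to 215747667, there were 1049 tags in knockdown and 735 in control cells (log2 ratio per kb 0.63), and neither mark was called within 2 Mb outside the region. At chromosome 7, 79764289 to 79770576, there were 459 tags in knockdown and 294 in control cells (0.82), again with neither mark within 2 Mb. At chromosome 6, 163921028 to 163926485, there were 263 tags in knockdown and 199 in control cells (0.20). At chromosome 13, 107180645 to 107188017, there were 569 tags in knockdown and 304 in control cells (0.22 per kb, 0.96 by tags). The log2 ratio per kb was 0.09 to 0.82 in these 5 regions. At the chromosome 3 region the 0.09 was within its counting SE of 0.20, and the ratio of tags was -0.46.

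The 52 members with H3K79me2 close by were shorter and weaker than the rest. Their median length was 4281 bp, against 6285 bp in the other 489, and their median score was 90.8 in knockdown and 82.7 in control cells, against 136.1 and 110.3. The neighbouring H3K79me2 was called in both lines for 30 of them, in knockdown only for 7 and in control only for 15. Input peaks lay under 6 of the 52 (11.5%), against 26 of the other 489 (5.32%). The part of this in the lengths and scores was not tested. Of the 52, 41 also had another H3K79me3 peak within 10 kb (78.8%), against 50 of the other 489 (10.2%). The 3 nearest outside input peaks, picked after their values were seen, lay 43, 150 and 183 bp from H3K79me2. The first, at chromosome 1, 1259369 to 1260331, had 94 tags in knockdown and 77 in control cells. The third, at chromosome 3, 47422552 to 47428558, with 490 tags in knockdown and 214 in control cells, had control H3K79me2 at 183 bp and the nearest knockdown H3K79me2 only at 122117 bp. Just outside the rule, the regions with the least overlap of H3K79me3 with H3K79me2 shared 224 bp (chromosome 6, 61912497 to 61913707, an H3K79me2 peak of 13 tags) and 283 bp (chromosome 12, 118683718 to 118684805, a peak of 12 tags). Just inside, the lowest H3K79me3 score was 50.1 in knockdown cells, at chromosome 2, 184011162 to 184013479, with 87 tags in knockdown and 49 in control cells. In control cells it was 50.4, at chromosome 1, 14076151 to 14079653, with 241 tags in knockdown and 36 in control cells.

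Which regions had H3K79me3 without H3K79me2 depended on where the lists were cut. With a score of at least 100 required of H3K79me3 peaks only, 233 of the 541 were left. With the same limit on all 4 ChIP lists there were 431 regions, of which 233 overlapped one of the 541. With a fold enrichment of at least 5 in all lists there were 416 regions, of which 73 (17.5%) overlapped one of the 541, with a median length of 3662 bp. With lists cut to equal length by score 485 were found, and 369 of them overlapped one of the 541.

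Input peaks lay under 32 members (5.91%, 95% interval 4.08 to 8.25%), against 3.44% of regions with both marks (95% interval 2.89 to 4.06%), 16.1% of regions with H3K79me3 in control only and no H3K79me2, and 4.28% of all merged regions. The share was 5.35% where H3K79me3 was in both lines and H3K79me2 in control only, 20.4% where H3K79me2 was in knockdown only, and 5.2% for H3K79me3 in knockdown only without H3K79me2. With a score of at least 100 required of H3K79me3 peaks, 1.29% of the 233 remaining members lay on input peaks. The 32 regions on input peaks differed from the other 509. Their median length was 779 bp, against 6307 bp, and they held a median of 17 tags in knockdown and 28 in control cells, against 563 and 364. Of the 31 members of up to 1 kb, 25 were on input peaks, and of the 510 longer ones 7 were. Their fold enrichment was higher than that of the rest, with medians of 10.5 in knockdown and 9.73 in control cells, against 4.10 in knockdown and 4.0 in control cells. The median log2 ratio, knockdown over control, was 0.19 per kb and -0.53 by tags, against 0.51 and 0.59 outside input peaks; the called length on input peaks was a median of 418 bp in knockdown and 757 bp in control cells.

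At 22 of the 32 both inputs had a peak, at 4 knockdown input alone and at 6 control input alone. At these 22 the input peaks were denser than the H3K79me3 peaks in 21 regions in knockdown and in 22 in control cells. Their medians were 6.15 RPM per kb for knockdown input against 2.49 for knockdown H3K79me3, and 6.64 for control input against 2.02 for control H3K79me3. The called stretches differ in length between input and ChIP peaks, and the part of this in the densities was not tested. Among the 5 members on input peaks with the most tags, the one at chromosome 1, 27247899 to 27253648, stood apart: it had 907 tags (9.89 RPM per kb) in knockdown and 668 tags (9.64 RPM per kb) in control cells, and its only input peak, in knockdown input, had 7 tags. The other 4 were weak. At chromosome 5, 49428665 to 49430879, there were 110 tags in knockdown H3K79me3 and 140 in control H3K79me3, beside 96 in knockdown input and 100 in control input. At chromosome 17, 21902169 to 21906818, H3K79me3 had 26 tags in knockdown and 194 in control cells, with 92 tags in control input. At chromosome 2, 162135094 to 162137233, H3K79me3 had 62 and 79 tags in knockdown and control cells, beside 95 and 56 input tags. At chromosome 2, 90481470 to 90482608, it had 54 and 41 tags beside 75 and 82. All 3 members on chromosome Y lay on input peaks.

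Members were found on every chromosome examined, and on chromosome Y only on input peaks. As a share of the regions with H3K79me3 in both lines, they ranged from 3.02% on chromosome 19 (11 of 364, 95% interval 1.52 to 5.34%) to 16.7% on chromosome 10 (32 of 192, 95% interval 11.7 to 22.7%) over the 23 chromosomes other than Y. On the rest of the genome without chromosome 19 the share was 11.3% (530 of 4702). Chromosome 4 stood at 16.2% (27 of 167, 95% interval 10.9 to 22.6%). On chromosome 19 the regions with H3K79me3 in both lines were also close together, with a median of 21366 bp to the nearest other merged region, against 83668 bp on chromosome 4, and 34.1% were over 5 kb, against 43.7%. The part of spacing and length in the share was not tested, and the chromosomes share the same libraries. The median log2 ratio per kb, knockdown over control, was above 0 on each of the 23 chromosomes, from 0.34 on chromosome X to 0.64 on chromosome 19.

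**Figure D5:**
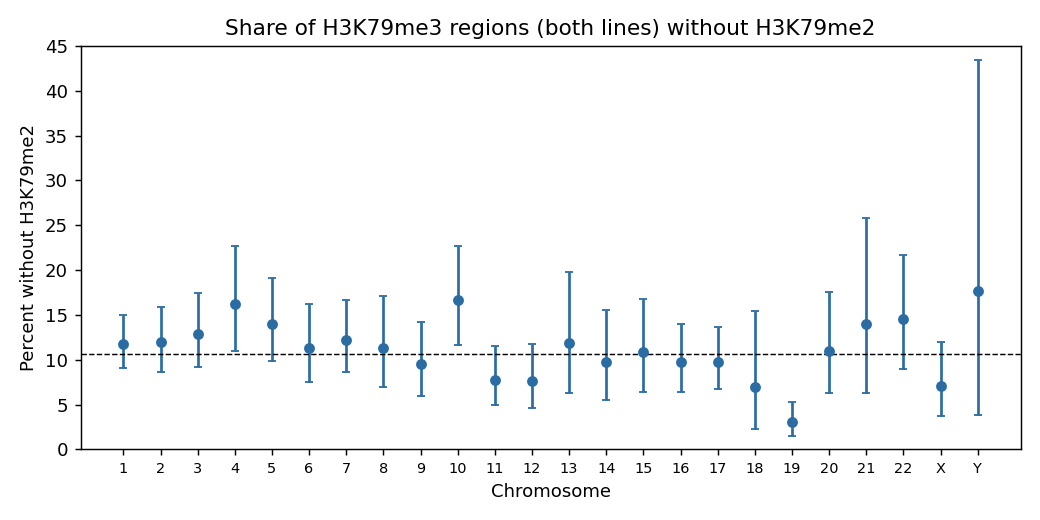
Percent of the regions with H3K79me3 in both lines that had no H3K79me2, by chromosome, with exact 95% binomial intervals as bars and the share over all chromosomes (10.7%) as a dashed line. Chromosome 19 is lowest at 3.02% and its interval lies below the dashed line. Chromosomes 4 and 10 are among the highest, and chromosome Y has 3 of 17 regions, all 3 on input peaks.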

How the data were processed

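The deposited files list, for each library, peaks that were called with MACS 1.4.2 in that library alone, per the file headers: no control file, a p cutoff of 1e-05, a regional background over 10000 bp, and duplicates cut to 1 tag per position. Reads were aligned to hg19 (GRCh37) with Bowtie2, per the submitters' processing notes, which give no Bowtie2 version here. The deposited tags are raw counts per peak. Fold enrichment was deposited as a ratio to the library's own local background. The deposited significance is used as a score, since its values are 10 times the negative log10 p that its heading names.

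Peaks were merged and measured with pandas 2.3.3 and numpy 2.4.6 under Python 3.11.15, with intervals from scipy 1.17.1. In a region, tags were summed over each line's H3K79me3 peaks and divided by the library's filtered tags (RPM) and by the called length. Distances run from the region's edge to the nearest peak's edge. Shares carry exact Clopper-Pearson 95% intervals, RPM exact Poisson ones, and the SE of a log2 ratio comes from tag counts. A fold of 1.5 stands in for a call, because 1 library per group allows no test. The regions, and the limits used to describe them, were chosen with earlier results of these data known. Named regions were the 5 highest in knockdown score, length, distance to H3K79me2 and ratio and the 5 lowest in ratio (at least 50 tags in each line), outside input peaks and off chromosome 8, and the 5 with most tags on input peaks. The planned counts of genes by list were not made, since hg19 gene positions were not used here. On simulated data, 200 of 200 planted regions among 3000 sites were found, with 0 false ones. Every other simulated site held a peak in each ChIP list, so this checks the merging only. It does not measure errors from missed calls.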

Additional observations from a re-analysis of the deposited data

Results flagged for a closer look

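Sequences other than the assembled chromosomes were left out of the comparisons above but hold regions of the same kind. By the same rule, 10 of 251 merged regions on 36 unplaced, unlocalised or alternative sequences had H3K79me3 in both lines and no H3K79me2. On the assembled chromosomes it was 541 of 8899 (6.08%). Of the 10 regions on the other sequences, 6 lay on input peaks and 1 on an alternative haplotype sequence. The median length of these 10 was 1698.5 bp.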

How the results depend on the processing

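Each of 7 results was recomputed under 9 alternatives (8 for the share with H3K79me2 within 10 kb); leaving out regions with H3K79me2 within 10 kb was added after the data were seen. Of these, only the median log2 ratios have a direction that can turn, and they kept it. The median log2 ratio of tags stayed within its interval in 9 of 9, between 0.51 and 0.59. The number of regions, 541, became 233 with a score of at least 100 for H3K79me3 only and lay between 367 and 542 in the others. The median log2 ratio per kb, 0.50, was 0.47 with a score of at least 100 in all lists, 0.52 without regions with a peak over 7 kb and 0.55 with lists cut to equal length, where 44.9% instead of 38.3% were at least 1.5-fold higher. The share on input peaks, 5.91%, was 1.29% with a score of at least 100 for H3K79me3 only, 8.72% without peaks over 7 kb, 3.71% with equal lists and 0% by construction without peaks on input peaks. The share with H3K79me2 within 10 kb, 9.61%, was 6.73% with a score of at least 100 in all lists, 6.44% with that limit on H3K79me3 only and 6.60% with equal lists. The median distance, 72023 bp, was 84918 bp with a score of at least 100 in all lists. With a fold of at least 5 it was 88854 bp, and with equal lists 84661 bp. These settings also removed H3K79me2 peaks, which can lengthen the distance. With the score limit on H3K79me3 only it was 74259 bp. Without the regions within 10 kb it was 86748 bp, by construction. Other causes were not tested. No paired analysis was possible because each group has 1 library. Weak regions rest on few tags, with as few as 10 in knockdown and 12 in control cells.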

Other observations

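The nearest H3K79me2 peak lay within 10 kb of the same distance in both lines for 375 of the 541 members. It was nearer by more than that in knockdown cells for 41 and in control cells for 125. The knockdown list held 6193 H3K79me2 peaks and the control list 6827. The same split was not counted in other regions, so it is not read as particular to the members. The following examples were picked after their values were seen. At chromosome 14, 45424018 to 45431108, the distance was 56251 bp in knockdown and 2937852 bp in control cells, and at chromosome 5, 14664766 to 14666564, it was 203542 bp in knockdown and 1796922 bp in control cells. For the member at chromosome 2, 62108936 to 62117823, the nearest knockdown H3K79me2 peak lay 735569 bp away and the nearest control one 28636 bp. At chromosome 4, 146092910 to 146101835, the distances were 300235 bp in knockdown and 92557 bp in control cells, and at chromosome 13, 96700583 to 96705866, they were 305741 and 11523 bp.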
